A study of Mus musculus with 113 samples.

Results

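The 150 genes described here were those whose RNA fell most from the 2-cell (2C) to the 8-cell (8C) stage in control mouse embryos. They were selected on measured values: for each of 24006 genes, the median log2(FPKM + 1) of 16 control 8C embryos was subtracted from that of 15 control 2C embryos, and the 150 highest differences were kept after 248 genes had been dropped by symbol (those starting with Zscan4, Tdpoz, Tcstv, Obox, Nlrp, Zp1 to Zp3, Klf, Snor, Eif or Hsp). FPKM sets the fragments read from a transcript against its length and the size of the library. The difference on this log2 scale ran from 9.54 to 4.77, with a median of 5.44. Since these control embryos chose the genes, the fall in them is a description and was not tested. Among the genes dropped by symbol, 6 had a difference as large as the members' (*Eif4e1b*, *Obox3*, *Obox5*, *Zscan4f*, *Tcstv1* and *Tcstv3*).

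RNA-seq had been done with Smart-seq2, which amplifies whole transcripts from little RNA, on embryos of superovulated females mated, per the study's methods, with PWK/PhJ males, and the labels give all of these embryos as wild type. Pools of embryos injected with siRNA formed 16 groups of 2 libraries each. They comprised 4C and 8C embryos with siRNA against *Nr5a2*, *Rarg*, *Nr1h3* and *Nr2c2* together (4KD), 8C embryos with 3 of these 4 (3KD, named here by the siRNA left out), 8C embryos with siRNA against each receptor alone (single KD), and 2C *Nr5a2* KD embryos. Each of these experiments had negative control (NC) siRNA pools of its own. The labels give 5 μM for the siRNA of the KD groups at 4C and 8C and 20 μM for 2C *Nr5a2* KD, and 20, 15 and 5 μM for the NC siRNA of the 4KD, 3KD and single KD experiments and 20 μM for 2C NC. Single embryos had received mRNA of a base editor (BE), the sgRNA against *Nr5a2*, or both, at 100 ng/μl, with 8, 8 and 14 embryos at each of 2C and 8C. The BE and the sgRNA embryos were the controls that chose the genes, less the eighth 2C sgRNA embryo, which the choice left out. The 14 BE + sgRNA embryos of a stage are called edited embryos here, although how much of *Nr5a2* was edited in each was not measured from these files and the embryos can hold unedited copies. Embryos of a group are separate libraries, but the labels do not say which shared a litter or an injection day, so p-values measure the spread between these libraries.

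A mouse zygote starts with RNA that the oocyte made and stored. Much of this RNA is deadenylated and degraded around the 2C stage, with BTG4 bringing a deadenylase complex to stored mRNA, while the embryo's own genome is switched on in a minor and then a major wave of zygotic genome activation (ZGA). Part of the first transcripts, such as those of the *Zscan4*, *Usp17l* and *Zfp352* genes, are themselves made only for a short time around the 2C stage. A gene that falls from 2C to 8C may therefore carry stored maternal RNA, a brief zygotic burst, or both.

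Both kinds stood among the 150 genes. The study's own list of ZGA genes, defined on other staged embryos, held 20 of them (13 of its minor and 7 of its major wave), and 130 were on neither part. The 13 were 21.0% of the 62 minor ZGA genes in the files, and the 7 were 0.633% of the 1105 major ZGA genes. For scale, the members were 150 of the 24006 genes in the files. The other gene lists were chosen with earlier results of these data known, so their shares are a description. A list of oocyte-deposited transcripts written for this work held 24 members, or 34.3% of its 70 genes. They included *Gdf9* and *Bmp15*, growth factors that the oocyte secretes, the 3 oocyte-secreted protein genes *Oosp1*, *Oosp2* and *Oosp3*, the *Tcl1* family of AKT coactivators, the egg-restricted kinase gene *Wee2* and *Btg4*. A list of 2-cell burst genes held 10 members (21.7% of 46 genes), among them *Zfp352*, 3 *Usp17l* deubiquitinase genes and *Gm5662*. Of 54 ubiquitin ligase and deubiquitinase genes 5 were members (*Trim60*, *Trim61*, *Trim75*, *Siah2* and *Mdm4*), and of 51 chromatin genes 1 was (*Brdt*, a bromodomain protein known from the germ line). Of 48 mRNA decay genes 2 were (*Btg4* and *Papd7*) and of 47 genes of meiosis and the cell cycle 2 were (*Wee2* and *Gadd45a*). No member was on the lists of cumulus cell, sperm or 8C and trophectoderm markers. Predicted genes named Gm with a number made up 26 of the 150 (17.3%, against 4.79% of all genes in the files), while solute carrier, olfactory receptor and microRNA genes had no member.

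Some members were copies lying side by side, among 123 members with coordinates on mm9. Chromosome 4 held 7 members between 143101246 and 143752566, *Oog3* (an oogenesin gene), *Gm13057*, *BC080695*, *Gm13078*, *Gm13023*, *Gm13084* and *Gm13103*. Chromosome 12 held *Oog1*, *Gm8300*, *Gm2016*, *Gm2042*, *Gm10436* and *Gm5662* between 88855266 and 89562433, and all of *Tcl1*, *Tcl1b1*, *Tcl1b2*, *Tcl1b3*, *Tcl1b4* and *Tcl1b5* within 76.7 kb, from 106384224 to 106460947. *Trim75*, *Trim60* and *Trim61* lay within 37.0 kb of chromosome 8 (67505550 to 67542587), and the leading pair *Omt2a* and *Omt2b* within 17.6 kb of chromosome 9 (78159779 to 78177427). Copies in such clusters are alike in sequence, and the authors' counting could split or share reads between them, so the level of any single copy of the *Tcl1b*, *Usp17l*, *Trim60*, *Omt2* and *Gm* groups is uncertain.

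The promoters of a few members are shown because they carry the features that could be searched across the list. Sequences from 250 bases before to 50 bases after a start were taken from RefSeq on GRCm38.p6, another build than the mm9 of the expression values, and 109 of the 150 members had one. The letters TATAAA on either strand stood in 20 of these 109 promoters (18.3%) and in 15.7% of the promoters of all 27025 genes. On the gene's own strand with the first base 40 to 20 bases before the start, a window picked after a first look at the sequences, they stood in 8 of 109 (7.34%, *Arhgap20os*, *B020004C17Rik*, *C86187*, *Gm11758*, *Gm13057*, *Oog3*, *Tgfb2* and *Usp17lb*) and in 2.41% of all genes. GGATTA was found in 14 (12.8%, against 8.14%) and CCAAT in 58 (53.2%, against 41.1%). TCAAGGNCA, the letters searched for NR5A2, was in none of the 109 windows and in 1.86% of all genes, which says only that these letters were not in these windows. Below, *Oog3* (oocyte-deposited, minus strand, chr4:144162602-144162901) and *B020004C17Rik* (minor ZGA, plus strand, chr14:57014884-57015183) have TATAAA in capitals, starting 29 and 30 bases before the start. *Tcl1b1* (chr12:105159454-105159753), *Tcl1b3* (chr12:105190795-105191094) and *Tcl1b4* (chr12:105202145-105202444), all on the plus strand, have in capitals the longest run that the 3 promoters share, of 32 bases, which began 88, 90 and 61 bases before the start.
Oog3: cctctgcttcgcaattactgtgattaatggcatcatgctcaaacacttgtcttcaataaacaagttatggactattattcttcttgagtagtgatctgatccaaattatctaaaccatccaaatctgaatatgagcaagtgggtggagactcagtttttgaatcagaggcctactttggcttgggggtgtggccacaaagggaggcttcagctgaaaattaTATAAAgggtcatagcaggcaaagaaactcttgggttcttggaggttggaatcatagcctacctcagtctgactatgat
B020004C17Rik: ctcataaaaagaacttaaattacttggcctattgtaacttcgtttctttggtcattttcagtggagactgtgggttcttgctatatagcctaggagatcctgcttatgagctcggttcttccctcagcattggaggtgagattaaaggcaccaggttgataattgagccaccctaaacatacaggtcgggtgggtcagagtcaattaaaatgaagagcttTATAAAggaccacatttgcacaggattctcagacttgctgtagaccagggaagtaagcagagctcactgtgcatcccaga
Tcl1b1: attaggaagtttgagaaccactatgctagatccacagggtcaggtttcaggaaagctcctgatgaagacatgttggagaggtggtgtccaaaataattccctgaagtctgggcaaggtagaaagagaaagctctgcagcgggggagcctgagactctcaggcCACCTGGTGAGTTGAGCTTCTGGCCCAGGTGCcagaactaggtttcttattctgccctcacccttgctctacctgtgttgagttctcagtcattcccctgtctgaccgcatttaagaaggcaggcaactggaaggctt
Tcl1b3: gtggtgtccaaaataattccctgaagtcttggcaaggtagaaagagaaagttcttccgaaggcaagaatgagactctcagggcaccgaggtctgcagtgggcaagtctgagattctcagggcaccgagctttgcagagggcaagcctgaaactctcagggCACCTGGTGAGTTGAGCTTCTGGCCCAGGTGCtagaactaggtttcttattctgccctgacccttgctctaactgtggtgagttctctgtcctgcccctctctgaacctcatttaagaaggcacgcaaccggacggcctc
Tcl1b4: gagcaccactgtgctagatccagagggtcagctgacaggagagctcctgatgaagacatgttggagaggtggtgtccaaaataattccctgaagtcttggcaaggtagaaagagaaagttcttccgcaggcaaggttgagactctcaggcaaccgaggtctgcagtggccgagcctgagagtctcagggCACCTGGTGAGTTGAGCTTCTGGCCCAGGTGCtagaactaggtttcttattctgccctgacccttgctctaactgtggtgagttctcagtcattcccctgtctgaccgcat

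In control 2C embryos the median level of the 150 genes ran from 26.2 to 6361 FPKM, with a median over the genes of 75.8 FPKM, and in control 8C embryos that median was 0.321 FPKM. The median at 8C was 0 for 43 genes, under 1 FPKM for 110 and at least 5 FPKM for 8. A 0 in these files need not mean that a transcript was absent. The housekeeping gene *Gapdh*, which was low here with a median of 4.73 FPKM over the libraries, was listed at 0 in 1 library. No fold is therefore given against a 0. The highest levels at 8C were those of *Cox6b2* (a cytochrome c oxidase subunit known from testis), with a median of 16.7 FPKM after 691 FPKM at 2C, and of *Omt2b*, with 11.9 FPKM after 6361 FPKM. The 12 genes with the largest difference were *Omt2a*, *Omt2b*, *Tcl1b3*, *Tcl1b1*, *Tcl1b4*, *Snhg9*, *Oog3*, *Gm8764*, *Ccdc69*, *Tcl1*, *C86187* and *Gm1965*. *Omt2a* (an oocyte maturation gene) went from 4773 to 5.41 FPKM, *Tcl1b3* from 583 to 0.445 FPKM, and *Oog3* from 356 to 0.422 FPKM. The last 3 genes inside the limit were *Ccdc74a*, *D1Ertd622e* and *Gm13103*, with differences of 4.78, 4.78 and 4.77, and the first 3 outside were *Cdc42se2*, *Cd7* and *Prl8a2*, with 4.75, 4.75 and 4.75.

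These genes made up 4.35% to 24.3% of the FPKM sum of a 2C BE embryo and at most 0.201% of that of any 8C siRNA pool. The FPKM sum of the 92 libraries used lay between 83392 and 556462. Because the files hold no read counts, a relative depth was read from the most common ratio of low FPKM values between libraries. That relative depth lay between 0.394 and 1.51 (median 1). The siRNA targets were low where labelled: *Nr5a2* was at 27.1 and 30.3 FPKM in 8C NC and at 3.90 and 6.91 FPKM in 8C 4KD pools, at 50.2 and 48.8 FPKM in the NC and at 9.65 and 12.8 FPKM in the KD pools of the single KD experiment, and at 19.4 and 24.3 FPKM in 2C NC and at 2.72 and 6.13 FPKM in 2C KD pools. In the single KD experiment *Rarg* was at 28 and 33 FPKM in NC and 3.64 and 5.47 FPKM in its KD pools, *Nr1h3* at 9.32 and 12 and at 0.547 and 0.240 FPKM, and *Nr2c2* at 7.81 and 12.2 and at 0.809 and 0.592 FPKM. Libraries that stood apart were known from the headers or seen in the values. The column headers of 2C sgRNA replicate 8 and of edited 8C replicates 13 and 14 name the 4-cell stage, against their labels. The members' median in 2C sgRNA replicate 8 was 1.97 FPKM, against 25.9 to 108 FPKM in the other 7 embryos of that group. In the 8C pools a sum of 2C marker genes (*Zscan4c*, *Zscan4d*, *Tcstv1*, *Tcstv3*, *Tdpoz4* and *Zfp352*) was highest in *Nr2c2* KD replicate 1 with 351 FPKM, the 3KD pool without *Rarg* siRNA replicate 1 with 88.6 FPKM and *Rarg* KD replicate 2 with 88.3 FPKM, whose partners had 4.48, 35.7 and 11.2 FPKM, and no other 8C pool exceeded 35.7 FPKM. Summed cumulus cell markers reached 31.5 FPKM and sperm markers 44.5 FPKM in 2C embryos, and at most 1.31 and 9.93 FPKM in any 8C library. These markers were thus lower at 8C along with the members, and their part in the members' fall was not tested.

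**Figure D1:**
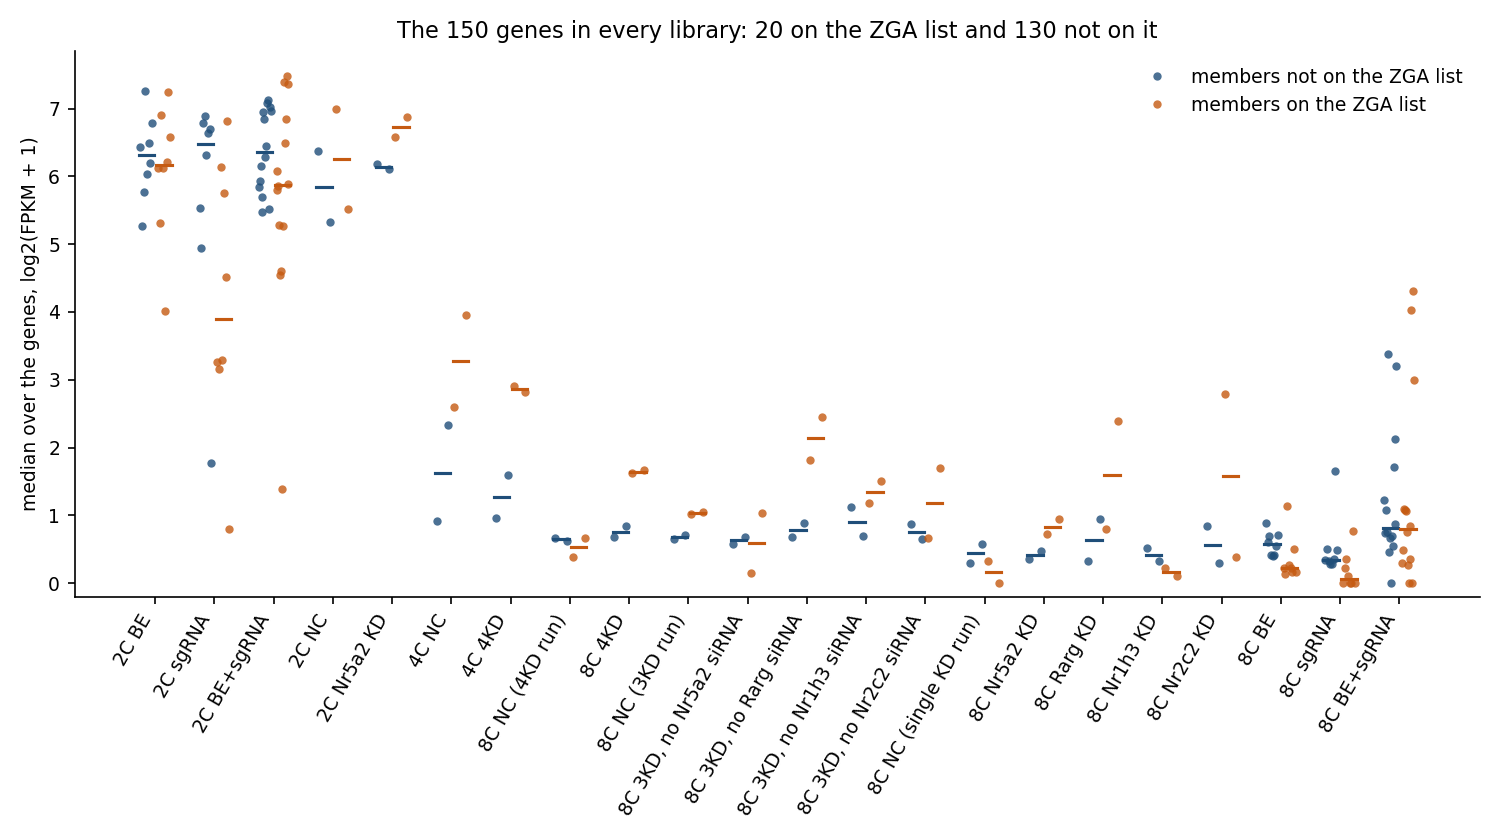
Median log2(FPKM + 1) of the members in every library (points) and the median of each group (lines), for the 130 members not on the ZGA list (blue) and the 20 on it (orange). At 2C the orange points range more widely than the blue ones within each group, with 9.85-fold against 4.05-fold in BE embryos, and 1 sgRNA embryo lies low in both. The wider orange range was not seen among the embryos whose headers name the eBE editor. Among edited 8C embryos, 3 have high orange points (6.99, 16.1 and 18.8 FPKM).

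At 2C the genes on the ZGA list ranged widely between single embryos. In the edited embryos a large part of that range lay between 2 editor names and in 1 embryo, but not so in the BE embryos. The headers name 2 editors, BE4 and eBE, and the embryos were grouped by that name. The editor and any other difference between these groups cannot be told apart. In the 14 edited 2C embryos the median of the 20 ZGA members ran from 1.63 to 179 FPKM and that of the other 130 members from 43.7 to 139 FPKM. In the 8 edited embryos named BE4 the ZGA members lay between 1.63 and 66.6 FPKM, and in the 6 named eBE between 59.2 and 179 FPKM. Without replicate 7, the lowest, those named BE4 spanned 22.4 to 66.6 FPKM, a 2.97-fold range beside a 2.80-fold range of the other members. In those named eBE these ranges were 3.02-fold and 3.10-fold. The other members were also higher in edited embryos named eBE, with a median of 126 FPKM against 65.1 FPKM, so the 2 names differed in both kinds. In replicate 7 the other members stood at 114 FPKM. In the 8 BE embryos the ZGA members had a median of 71.2 FPKM. In the 4 BE embryos named BE4 they spanned 15.4 to 152 FPKM, a 9.85-fold range beside a 1.71-fold range of the other members. In the 4 named eBE these ranges were 3.08-fold and 4.05-fold. In the 8 sgRNA embryos the ZGA members had a median of 15.3 FPKM, with 6 of those 8 between 8.00 and 69.4 FPKM, replicate 7 at 112 FPKM and replicate 8 at 0.751 FPKM. The 10 members on the 2-cell burst list ran from 1.51 FPKM in edited replicate 7 to 162 FPKM in replicate 12. The sum of 2C markers, which shares *Zfp352* with the members, ran from 55.6 to 1472 FPKM over the edited 2C embryos and was lowest in replicate 7. Its part in the spread of the ZGA members was not tested.

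In siRNA pools at 2C, where *Nr5a2* KD was compared with NC, no shift of the members as a group could be told from the spread of the NC pools. Their median was 86.2 and 40.8 FPKM in the NC pools and 76.0 and 75.8 FPKM in the KD pools, so the KD pools lay between the controls. *Omt2a* stood at 6042 and 2467 FPKM in NC and at 3296 and 4503 FPKM in KD. *Brdt* stood at 289 and 90.6 FPKM in NC and at 236 and 250 FPKM in KD. In neither gene did the groups separate. In a pool of embryos, fewer cells that hold a transcript and less of it per cell cannot be told apart. Among the 150 members, which all passed the filter on low values, 0 were called by limma (adjusted p under 0.01 and a change of 2 or more on the log2 scale), where 0.0167% of 11958 genes were called, and 0 passed an adjusted p under 0.05. At an unadjusted p under 0.05, 3 members were higher and 1 lower, against 3.96% and 0.702% of all genes, and the KD pools lay above both NC pools for 22 and below for 4, against 23.1% and 7.84%. The median log2 fold change was 0.14 for the members and 0.23 for all genes, and it turned to -0.09 with median-ratio scaling and -0.08 with quantile normalization. Without NC replicate 2 it was -0.40. *Gadd45a*, a growth arrest gene of the major ZGA wave, had 17.9 and 33.5 FPKM in NC and 69.0 and 96.8 FPKM in KD, with a log2 fold change of 1.70 (SE 0.448, limma adjusted p 0.890). *Gpr50* had 66.0 and 6.84 FPKM in NC and 141 and 137 FPKM in KD, and *Prlr*, the prolactin receptor gene, 20.4 and 9.92 FPKM in NC and 30.4 and 30.0 FPKM in KD. For *Gm21312* the KD pools were the lower ones, with 15.8 and 12.4 FPKM against 64.9 and 35.4 FPKM.

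Most of the fall had already happened at 4C. Set against the mean of the 2C NC pools, the 4C NC pools of the 4KD experiment had 3.70% of the level left in the median member, with a range from 0 to 44.8%, and the 8C NC pools of that experiment had 0.823%, with 20.7% as the highest. The 2C and the 4C pools belong to different experiments, so stage and experiment cannot be told apart and no test is given. Genes on the ZGA list kept more at 4C, with a median of 13.9% against 3.36% for the other members, and the 2-cell burst list kept 15.0% against 2.51% for the oocyte-deposited list. This order was seen in each 4C NC pool by itself, with 5.24% against 1.46% in replicate 1 and 19.5% against 4.89% in replicate 2. Under 5% was left at 4C for 86 members, which were 4 of the 20 ZGA members and 82 of the 130 others. At least 20% was left for 10 members, 5 of each kind. The largest share was that of *B020004C17Rik*, a minor ZGA gene, with 22.8 and 281 FPKM at 4C after a mean of 339 FPKM at 2C. Next came *AA792892* with 43.0% left, which was 4.30% in the first pool and 81.6% in the second, and *Gm4850* with 34.7%, which was 48.2% and 21.1%. Of the genes with a maternal role, *Gdf9* stood at 3.25 and 9.61 FPKM at 4C after 101 and 39.6 FPKM at 2C, *Wee2* at 0.479 and 4.09 FPKM after 154 and 33.1 FPKM, and *Tcl1b3* at 2.89 and 8.19 FPKM after 696 and 244 FPKM. In these 3 genes the second 4C pool was the higher one, as it was for the members' median (1.03 and 5.37 FPKM). The sum of 2C markers was also higher in the second pool (311 against 146 FPKM), and its part in these values was not tested.

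**Figure D2:**
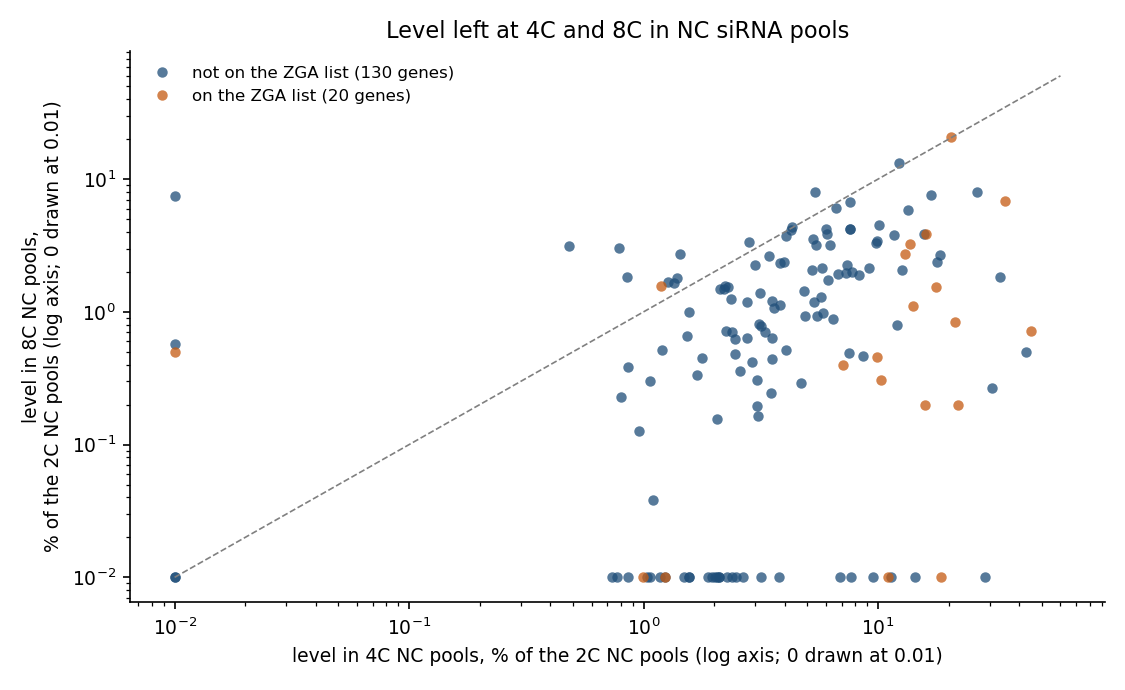
Level of each of the 150 genes left in 4C NC pools (x) and in 8C NC pools (y), each as a percent of the mean of the 2C NC pools, on log axes with 0 drawn at 0.01. Genes below the dashed line of equal values fell further from 4C to 8C. Genes on the ZGA list (orange) lie to the right, with a median of 13.9% left at 4C against 3.36% for the others (blue).

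From 4C to 8C the members fell further in NC pools that the choice of genes did not use. For 69 of the 150 members (46.0%) both 8C NC pools lay below both 4C NC pools, against 16.5% of all 14447 genes with a value, and for 2 members both lay above, against 13.9%. The 69 included 15 of the 20 ZGA members. *B020004C17Rik* went from 22.8 and 281 FPKM at 4C to 2.21 and 2.63 FPKM at 8C, with a log2 fold change of -4.59 (SE 0.956, limma adjusted p 0.272). *B020031M17Rik* went from 21.1 and 88.1 FPKM to 0 and 0, with -5.47 (SE 0.663, adjusted p 0.0504), the smallest adjusted p of a member in the siRNA pools. *Gm4971*, another minor ZGA gene, went from 10.7 and 19.6 FPKM to 0 and 0. The oocyte-deposited *Omt2a* overlapped, with 14.3 and 205 FPKM at 4C and 20.1 and 10.5 FPKM at 8C. No member of the 120 that passed the filter was called and 0% of 10476 genes were, also at an adjusted p under 0.05. Of these 120, 41 had passed the filter through a 4C group alone and 2 through an 8C group alone, which favours lower values, so the counts and medians over them are a description. At an unadjusted p under 0.05, 40 members were lower and 1 was higher, against 4.07% and 3.34% of all genes. The median log2 fold change was -1.14 for these 120 members and -0.01 for all genes. It depended on the 4C pools, with -0.55 when NC replicate 2 was left out and -1.78 when NC replicate 1 was left out. The burst list had 40 genes tested with a median of -1.54 and the oocyte-deposited list 54 genes with -0.63, and 0 of either were called.

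In 4KD pools both 8C pools lay below both 4C pools for 58 of the 150 members, against 16.4% of all genes, and above for 8, against 15.3%. The members' median was 1.32 and 2.35 FPKM in 4C 4KD and 0.790 and 0.831 FPKM in 8C 4KD pools, beside 0.559 and 0.572 FPKM in 8C NC pools. No member was called between the stages in 4KD pools (0% of all genes), and at an unadjusted p under 0.05, 16 were lower and 0 higher, against 3.7% and 3.96% of all genes. The median log2 fold change was -0.72. The difference between the falls, 4KD less NC, had a median of 0.49, with 0 members called (0% of all genes) and with 9 members above 0 and 2 below at an unadjusted p under 0.05, against 1.47% and 1% of all genes. That median was -0.28 when 4C NC replicate 2 was left out and 1.17 when replicate 1 was. *Gm2016* and *Gm5662*, both in the chromosome 12 cluster with *Oog1*, had the largest differences, of 4.28 and 4.28 (SE 1.30 and 1.20, limma adjusted p 1.00 and 1.00). *Gm2016* stood at 48.2 and 10.5 FPKM in 4C NC and at 0.220 and 5.56 FPKM in 4C 4KD pools, then at 1.03 and 4.05 FPKM in 8C NC and 6.20 and 6.65 FPKM in 8C 4KD pools. *Gm5662* stood at 66.2 and 23.9 FPKM in 4C NC and at 2.25 and 19.8 FPKM in 4C 4KD pools, then at 3.21 and 3.91 FPKM in 8C NC and 11.5 and 24.1 FPKM in 8C 4KD pools.

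For 4KD against NC within a stage, the same NC pools served as controls. At 4C both 4KD pools lay above both NC pools for 7 of the 150 members and below for 20, against 13% and 13.4% of all genes. There, 0 of 120 members were called (0% of all genes), and at an unadjusted p under 0.05, 2 were higher and 9 lower, against 2.26% and 3.56%. The median was -0.23, and it was 0.42 without NC replicate 2 and -0.91 without NC replicate 1. *Uchl1*, a ubiquitin hydrolase gene of oocytes, had 10.1 and 37.5 FPKM in 4C NC and 53.6 and 38.1 FPKM in 4C 4KD pools. At 8C, 0 of 120 were called (0% of all genes), 13 were higher and 4 lower at an unadjusted p under 0.05, against 3.15% and 4.33%, and the median was 0.17 beside 0 for all genes. Both 4KD pools lay above both NC pools for 34 of the 150 members, 9 of them on the ZGA list, and below for 12, none of them on it, against 15.9% and 16.6% of all genes. Of the ZGA members 6 and 8 reached 1 FPKM in 8C NC pools and 14 and 11 in 8C 4KD pools. The sum of 2C markers was 12.1 and 14.6 FPKM in these NC pools and 26.9 and 34.9 FPKM in 4KD pools, the sum of 8C markers 104 and 202 FPKM and 96.8 and 136 FPKM, and their part in the members' values was not tested. *Brdt* had 6.67 and 3.51 FPKM in 8C NC and 27.3 and 27.4 FPKM in 8C 4KD pools, a log2 fold change of 2.27 (SE 0.523, limma adjusted p 0.290). *Khdc1b*, of a family of oocyte KH-domain proteins, had 11.4 and 24.1 FPKM in NC and 38.8 and 79.0 FPKM in 4KD pools. *Bpgm*, the bisphosphoglycerate mutase gene, had 4.32 and 5.62 FPKM in NC and 14.5 and 28.7 FPKM in 4KD pools. *Ccdc69* was listed at 0 in both NC pools and had 3.21 and 6.94 FPKM in 4KD pools. *Lmo1*, a LIM-only transcription cofactor gene, went the other way, with 22.7 and 1.33 FPKM in NC and 1.08 and 0.853 FPKM in 4KD pools. *Oosp1* had 16.3 and 14.9 FPKM in NC and 6.00 and 0 FPKM in 4KD pools.

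The 3KD pools ask which siRNA a difference goes with, since each lacks 1 of the 4. All 4 groups were set against the same 2 NC pools, so they are given side by side. Of 107 members that passed the filter, 0 were called in any of them (0% of all genes in each). Members near 0 in NC can pass through a KD group alone, as *Ccdc69* did, which favours higher values. The counts and medians over the 107 are therefore a description. At an unadjusted p under 0.05, 6 members were higher and 0 lower without *Nr5a2* siRNA (1.39% and 0.969% of all genes), 11 and 3 without *Rarg* siRNA (3.09% and 3.16%), 8 and 2 without *Nr1h3* siRNA (3.62% and 3.33%), and 5 and 1 without *Nr2c2* siRNA (4.45% and 2.92%). Both 3KD pools lay above both NC pools for 19, 39, 23 and 29 of the 150 members in that order, against 13.9%, 17.2%, 16% and 17.2% of all genes, and below for 12, 17, 14 and 14, against 7.5%, 10.8%, 11.6% and 11%. The median log2 fold changes were 0.14, 0.17, 0.38 and 0.11, where those of all genes were 0.13, 0.12, 0.11 and 0.11. *Brdt* had 8.77 and 9.40 FPKM in NC, 17 and 19 FPKM without *Nr5a2* siRNA, 28.3 and 33.4 FPKM without *Rarg* siRNA, 24.6 and 26.4 FPKM without *Nr1h3* siRNA and 34.7 and 41.3 FPKM without *Nr2c2* siRNA. All 8 3KD pools thus lay above both NC pools, and the pools that had received *Nr5a2* siRNA lay above those that had not. The largest of its log2 fold changes was 1.95 (SE 0.401, limma adjusted p 0.210), without *Nr2c2* siRNA. *Lmo1* had 23.9 and 14.3 FPKM in NC and 9.36 and 20.1 FPKM without *Nr5a2* siRNA, and between 0.760 and 13.3 FPKM in the 6 pools that had received it. *Bpgm* had 5.95 and 4.84 FPKM in NC, 0.635 and 7.43 FPKM without *Nr5a2* siRNA and 8.50 to 30.2 FPKM in those 6 pools. *Ccdc69* was at 0 and 0.224 FPKM in NC, at 0 and 2.09 FPKM without *Nr5a2* siRNA and at 1.98 to 10.6 FPKM in the 6 pools.

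The 3KD pools without *Nr5a2* siRNA were also set against the mean of the other 3KD groups. Again 0 of 107 members were called (0% of all genes), with 7 higher and 9 lower at an unadjusted p under 0.05, against 6.03% and 4.08% of all genes, and a median of -0.29. The log2 difference was -2.27 for *Bpgm* (SE 0.666, limma adjusted p 0.233) and -1.69 for *Hbegf*, an EGF family growth factor gene of the major ZGA wave (SE 0.537, adjusted p 0.267). It was 1.66 for *Gyg*, the glycogenin gene, with 10.1 and 4.46 FPKM without *Nr5a2* siRNA and 0 to 2.99 FPKM in the other 6 pools. Without *Rarg* siRNA, 16 and 16 of the 20 ZGA members reached 1 FPKM, against 10 and 10 in NC and 8 and 10 without *Nr5a2* siRNA. The sum of 2C markers was 88.6 and 35.7 FPKM without *Rarg* siRNA and 21.6 and 13.8 FPKM in NC, and its part in this was not tested.

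**Figure D3:**
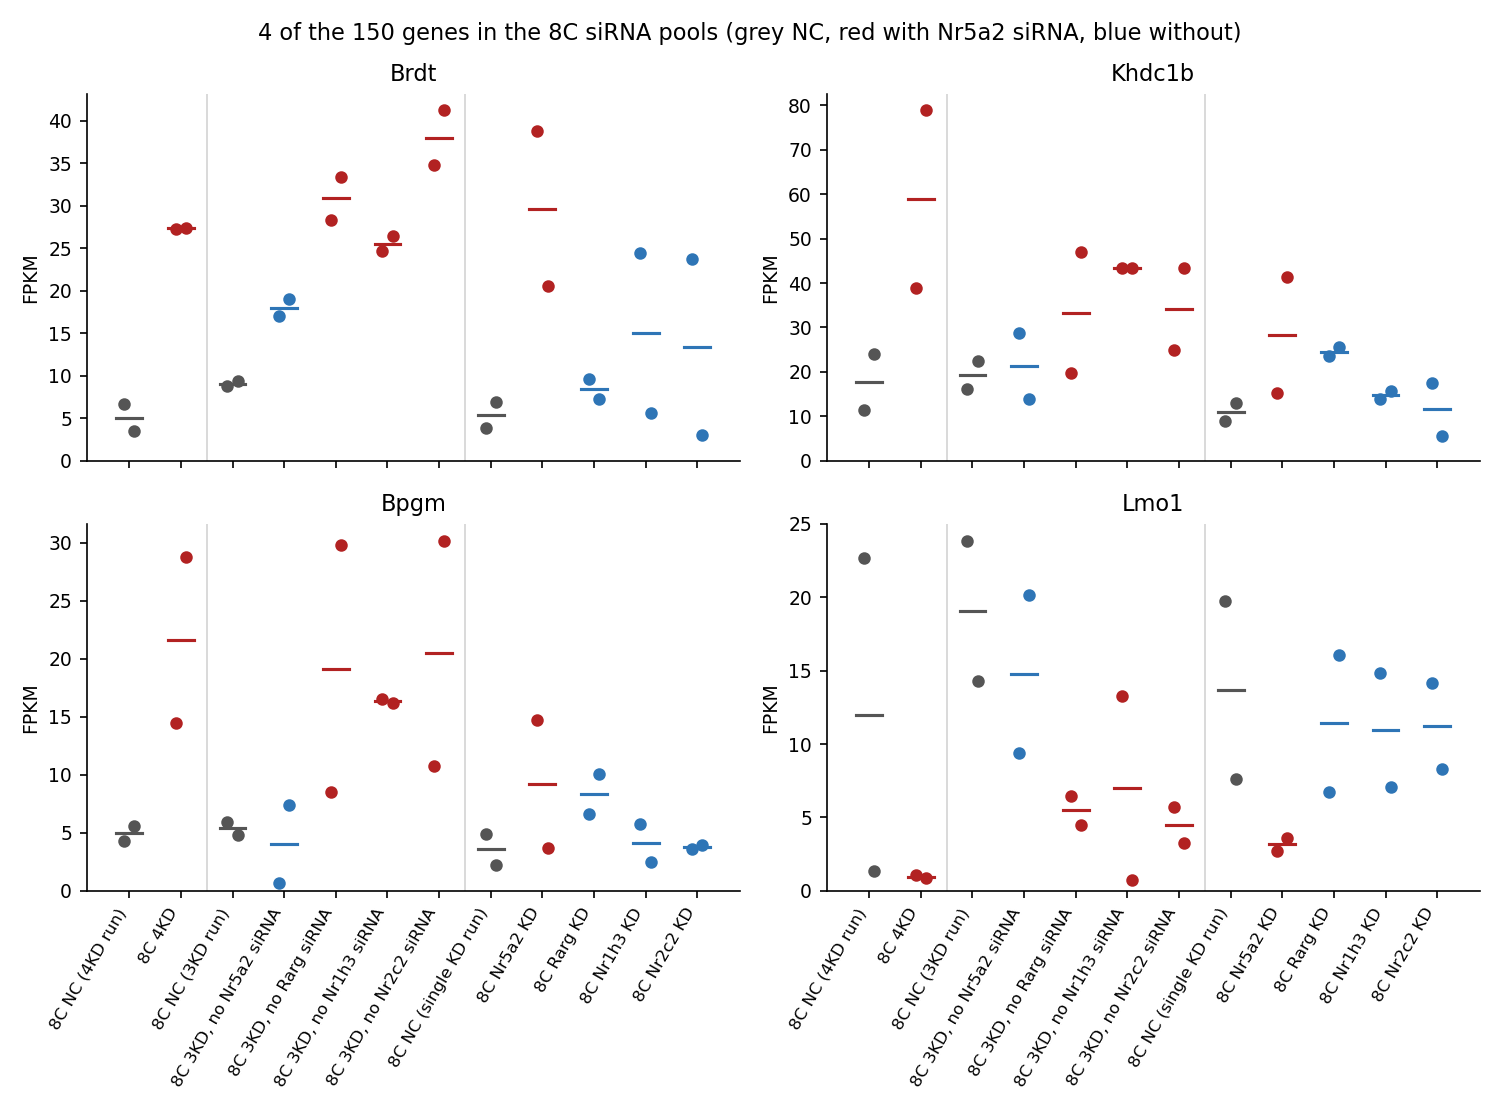
FPKM of *Brdt*, *Khdc1b*, *Bpgm* and *Lmo1* in every 8C siRNA pool (points) with the mean of each group (lines), for NC pools (grey), pools that received *Nr5a2* siRNA (red) and KD pools that did not (blue), with grey vertical lines between the 3 experiments. *Brdt* lies at 3.51 to 9.40 FPKM in the 6 NC pools and at 20.6 to 41.3 FPKM in the 10 pools with *Nr5a2* siRNA. Of the KD pools without *Nr5a2* siRNA, both 3KD pools lie above all NC pools. A *Nr1h3* KD pool and a *Nr2c2* KD pool lie within the range of the pools with *Nr5a2* siRNA, and the others lie near the NC pools. *Lmo1* lies at 0.760 to 13.3 FPKM in the 10 pools with *Nr5a2* siRNA and between 1.33 and 23.9 FPKM in NC.

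In the single KD pools at 8C the question was what each receptor's siRNA does by itself. Their 4 groups share 2 NC pools too. Only 85 members passed the filter, since the others were below a mean of 1 FPKM in every group. Members near 0 in NC can pass through a KD group alone, as *Zfp352* did, which favours higher values. The counts and medians over the 85 are therefore a description. *Nr5a2* KD against NC called 0 of them, where 0.689% of 10163 genes were called, with 7 higher and 5 lower at an unadjusted p under 0.05, against 4.01% and 14% of all genes. The members' median was 0.19 and that of all genes -0.22. Over all 150, both KD pools lay above both NC pools for 30 members (7 of them ZGA members) and below for 25 (none of them ZGA members), against 12.7% and 26.3% of all genes. *Brdt* had 3.87 and 6.93 FPKM in NC and 38.7 and 20.6 FPKM in *Nr5a2* KD pools, a log2 fold change of 2.24 (SE 0.797, limma adjusted p 0.165). It had 9.57 and 7.27 FPKM in *Rarg* KD pools, just above NC, and 24.4 and 5.66 FPKM in *Nr1h3* KD and 23.8 and 3.08 FPKM in *Nr2c2* KD pools, which overlapped NC. *Khdc1b* had 9.02 and 13.1 FPKM in NC and 15.3 and 41.5 FPKM in *Nr5a2* KD pools (log2 fold change 1.15, SE 0.550, adjusted p 0.303). *Lmo1* had 19.8 and 7.65 FPKM in NC and 2.70 and 3.62 FPKM in *Nr5a2* KD pools, a log2 fold change of -1.70 (SE 0.560, adjusted p 0.137), and 6.75 to 16.1 FPKM in the 6 other KD pools. *Gm4850*, of the minor ZGA wave, had 1.22 and 0 FPKM in NC and 7.91 and 10.6 FPKM in *Nr5a2* KD pools. The 2C marker sum was 5.52 and 2.96 FPKM in NC and 7.36 and 12 FPKM in *Nr5a2* KD pools and the 8C marker sum 175 and 152 FPKM and 124 and 88.9 FPKM, and their part was not tested.

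For the other receptors, 0 members were called either (0% of all genes in each). At an unadjusted p under 0.05, 8 were higher and 1 lower in *Rarg* KD (1.68% and 2.08% of all genes), 1 and 1 in *Nr1h3* KD (1.52% and 1.41%), and 8 and 1 in *Nr2c2* KD (0.669% and 3.52%). The medians were 0.55, 0 and 0.15, where those of all genes were -0.08, 0.00 and -0.24. Both KD pools lay above both NC pools for 46 of the 150 members in *Rarg* KD (13 of them ZGA members), 18 in *Nr1h3* KD and 22 in *Nr2c2* KD, against 11.8%, 16.5% and 7.34% of all genes, and below for 5, 16 and 10, against 15.2%, 15.4% and 27.2%. The partners of *Rarg* KD and of *Nr2c2* KD differed. In *Rarg* KD 9 and 18 of the 20 ZGA members reached 1 FPKM and in *Nr2c2* KD 14 and 2, against 1 and 2 in NC. The high pools, *Rarg* KD replicate 2 and *Nr2c2* KD replicate 1, were those with the higher 2C marker sum of their pair, and its part was not tested. *Zfp352* had 0.387 and 0 FPKM in NC, 0.499 and 50.1 FPKM in *Rarg* KD and 21.6 and 0.337 FPKM in *Nr2c2* KD pools, and *Gm5662* had 0.982 and 0.0859 FPKM in NC and 84.3 and 0.143 FPKM in *Nr2c2* KD pools. Without *Nr2c2* KD replicate 1 the median of *Nr2c2* KD was -0.15, and without *Rarg* KD replicate 2 that of *Rarg* KD was 0.15. *Snhg9*, the host of a small nucleolar RNA had 0 and 0 in NC and 446 and 174 FPKM, 291 and 495 FPKM, and 93.0 and 104 FPKM in *Rarg*, *Nr1h3* and *Nr2c2* KD pools. It swung as widely between pools of 1 group, with 0 and 232 FPKM in the 8C NC pools of the 4KD experiment and 571 and 0 FPKM in 4KD pools. *Nr5a2* KD against the mean of the other single KD groups called 0 members, against 0.994% of all genes, with 7 higher and 8 lower at an unadjusted p under 0.05 (6.09% and 13.4%). *Omt2a* had 0.527 and 1.49 FPKM in *Nr5a2* KD pools, 2.1 to 23.0 FPKM in the other 6 KD pools and 4.67 and 5.07 FPKM in NC, and its log2 difference of -2.37 (SE 0.644, limma adjusted p 0.0657) had the smallest adjusted p of a member there.

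Edited embryos, which the choice of genes did not use, also held less of the members' RNA at 8C than at 2C. Whether the fall differed from that of the control embryos was not tested. Of the 150 members, 149 were called lower at 8C than at 2C and 0 higher, where 11.3% and 7.13% of 11788 genes were, and all 150 passed the filter. The members had been chosen for this fall in control embryos. Some passed the filter through 2C alone, such as *Th* with at most 0.710 FPKM in an edited 8C embryo, which favours lower values. The counts and medians over the members are therefore a description. The median log2 fold change was -4.67, against -0.26 for all genes, and the members' values lay between -7.69 and -2.39. For 107 members (71.3%) no 8C embryo reached the lowest 2C embryo, against 4.6% of 19299 genes, and for 0 members the reverse held, against 0.985%. Of the 20 ZGA members 2 were among these 107. *Omt2a* ranged from 1375 to 7038 FPKM at 2C, with a median of 5284 FPKM, and from 1.5 to 231 FPKM at 8C, with a median of 34.9 FPKM, so that the stages did not overlap (log2 fold change -7.36, SE 0.496, limma adjusted p 2.62e-14). *Tcl1b3* ranged from 116 to 1280 FPKM at 2C and from 0 to 39.5 FPKM at 8C, and had the largest fall (-7.69, SE 0.477, adjusted p 5.76e-15). *Tcl1b1* fell by 7.13, *Gm1965* by 7.02 and *Pkd2l2*, a polycystin family channel gene, by 6.86 on the log2 scale.

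The smallest falls in edited embryos were of several kinds. *Snhg9* was the member that was not called, with 0 to 639 FPKM at 2C and 0 to 895 FPKM at 8C (log2 fold change -2.39, SE 1.25, limma adjusted p 0.0892). *Usp17ld* fell by 3.16, *Pramef25* by 3.41 and *Gm13057* by 3.47 on the log2 scale. These 3 are on the 2-cell burst list, and their lowest 2C embryos had 1.37, 1.99 and 0.717 FPKM, within the range of the 8C embryos. *Gpx3*, a secreted glutathione peroxidase gene, fell by 3.50, with 108 to 299 FPKM at 2C and 5.05 to 124 FPKM at 8C. Over the whole oocyte-deposited list, 56 of 69 genes tested were called lower and 0 higher, and over the 2-cell burst list 25 of 43 were lower and 2 higher. Of 47 mRNA decay genes 9 were lower and 1 higher, of 45 genes of meiosis and the cell cycle 5 and 1, of 50 chromatin genes 4 and 1, and of 51 ubiquitin genes 6 and 4. Each of these lists includes its members given above, which had been chosen for this fall in control embryos. Of all 11788 genes tested, 11.3% were called lower and 7.13% higher.

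The 8C control embryos cannot be compared with the edited ones by a test, because the members were chosen for low values in those controls, which by itself puts the controls low. As a description, the edited median was above the control median for 128 members, below it for 6 and equal for 16, and without the 2 libraries whose headers name the 4-cell stage it was above for 118 and below for 13. Over all 18015 genes with a value in these embryos it was above for 39.2% and below for 30.9%, and without those libraries for 36.5% and 33.4%, but those genes had not been chosen for low control values. The median reached 1 FPKM for 68 members in edited and for 40 in control embryos. For 5 members the edited median was above the highest control embryo. No share over all genes stands beside this count, so whether it is more than usual cannot be said. *Omt2a* had 34.9 FPKM in the median of edited embryos, against 5.42 FPKM in the median and 34.0 FPKM in the highest of the controls. *Oosp1* had 19.5 FPKM against 4.21 and 19.2 FPKM, *Cpa1*, a carboxypeptidase gene, 21.0 FPKM against 3.07 and 17.2 FPKM, *Oosp3* 3.04 FPKM against 1.41 and 2.89 FPKM, and *Gyg* 6.16 FPKM against 2.91 and 4.73 FPKM. Without the 2 libraries named above, *Oosp1*, *Omt2a*, *Cpa1* and *Oosp3* came to 14.7, 33.1, 17.2 and 1.99 FPKM, none of which exceeded the highest control, and *Gyg* to 5.58 FPKM, which did. *Gdf9* had 7.33 to 92.5 FPKM in edited 8C embryos, with a median of 14.4 FPKM, and 0.473 to 21.3 FPKM in controls, with a median of 2.59 FPKM. It was high in edited embryos at 2C as well, with a median of 408 FPKM against 110 FPKM in BE and 115 FPKM in sgRNA embryos. *Brdt* was higher than in NC in pools with *Nr5a2* siRNA and in some KD pools without it. In 8C embryos its median was 4.46 FPKM in edited and 3.33 FPKM in control embryos. Its ranges, from 0.585 to 91.3 FPKM and from 0.0579 to 20.0 FPKM, overlapped. *Khdc1b* had a median of 12.7 FPKM in edited and 9.18 FPKM in control embryos.

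**Figure D4:**
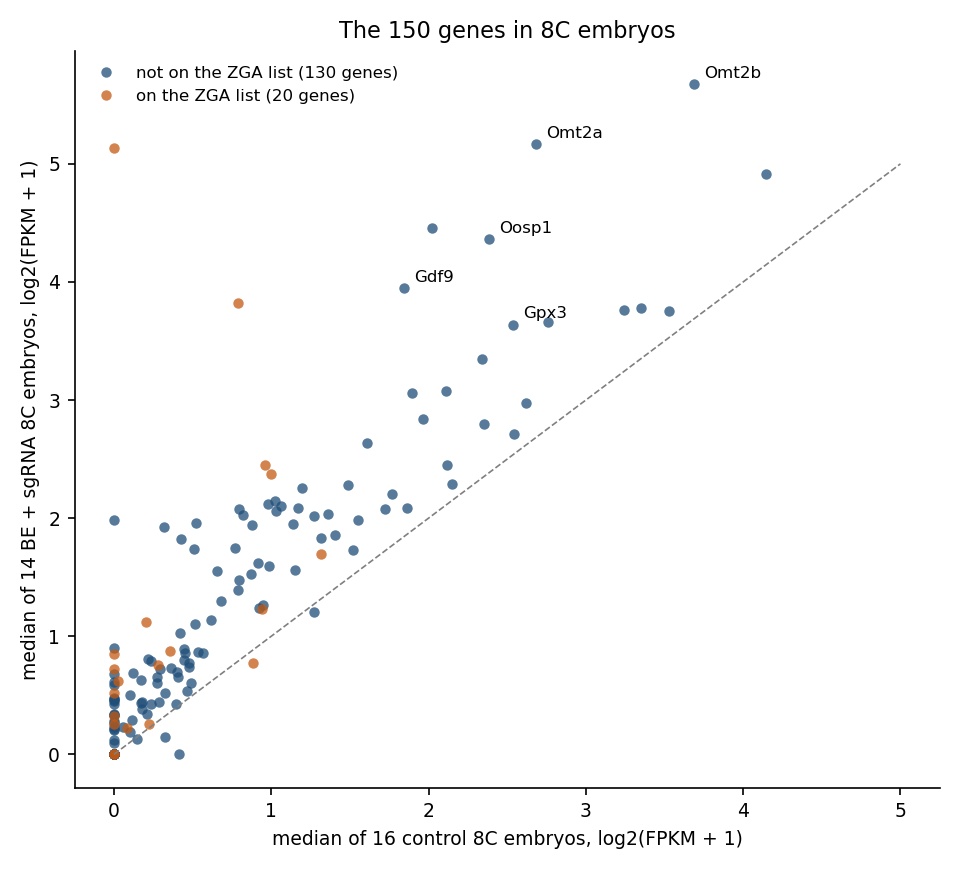
Median log2(FPKM + 1) of each of the 150 genes in 16 control 8C embryos (x), which chose the genes for low values, and in 14 edited 8C embryos (y), for members on the ZGA list (orange) and not on it (blue), with the line of equal values dashed. Of the genes, 128 lie above the line and 6 below it.

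Edited 8C embryos differed among themselves. The members' median was at most 1.14 FPKM in 10 of the 14, and was 2.80, 4.41, 6.22 and 8.12 FPKM in replicates 11, 13, 5 and 14. These 4 did not share a profile. Replicates 11 and 13 were high in ZGA members (16.1 and 18.8 FPKM, against 2.28 and 3.35 FPKM for the other members), and replicate 5 in members not on the ZGA list (9.41 FPKM, against 1.09 FPKM). Replicate 14 was high in both (6.99 and 8.21 FPKM), with the oocyte-deposited members at 25.0 FPKM. The 2C marker sum was 366, 248, 38.8 and 93.5 FPKM in replicates 11, 13, 5 and 14, and between 0.870 and 28.2 FPKM in the other 10. Replicates 13 and 14 are those with a 4-cell name in the header. Replicate 8, where the members' median was 0, had the lowest FPKM sum of all 92 libraries (83392). Without the libraries with a 4-cell name, and without that with the lowest sum, 149 members were again called lower from 2C to 8C.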

How the data were processed

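RNA-seq libraries of 92 samples were used, 1 table of 24006 genes each. The 21 further samples listed for the series were not analysed here. The deposited values are FPKM, which the authors computed with Cufflinks 2.2.1 from TopHat 2.1.1 alignments to mm9 with refFlat genes. No read counts were used, so the depth behind a value is unknown, and the protocol does not mark strand. FPKM was converted to log2(FPKM + 1), on which every fold change is given and which understates changes of low genes. Genes were tested if a group of the experiment averaged 1 FPKM or more. limma 3.58.1 (R 4.3.3, trended eBayes) was fitted per experiment, with Benjamini-Hochberg adjustment over all genes tested. A gene was called where its adjusted p was under 0.01 and its log2 fold change was 2 or more in size. Genes under 0.05 were counted too. "Not overlapping" means that every library of a group lay beyond every library of the other. The procedure was tested on simulated data. Tables and figures were made with Python 3.11.15, pandas 2.3.3, numpy 2.4.6 and matplotlib 3.10.9.

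The members and all gene lists were chosen with earlier results of these data known. Genes named were the 12 with the largest difference, 3 on each side of the limit, members on a list, up to 5 called members per comparison with the largest change or, with none called, up to 3 in each direction that did not overlap at a mean of 5 FPKM or more in a group, and 5 with the smallest fall in edited embryos. *Cox6b2*, *AA792892*, *Cpa1*, *Gyg* and genes named for a cluster or motif were otherwise chosen after their values were seen.

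Replicate numbers paired the 3KD libraries (correlations of deviations from the group means of 0.278 to 0.513 over 10 pairs of groups). The fit with a replicate block called 0 members there, as did the fit without it. The SEs and p-values given for 3KD pools are from the fit without the block, so they leave this pairing out. Alternatives were a pseudocount of 0.1, no filter or one of 5 FPKM, median-ratio scaling, quantile normalization, the replicate block and leaving out each pool. For edited embryos they were also fits without the libraries with a 4-cell header and with the header's editor name as a term. After the data were seen, a fit without the library with the lowest sum and a block with crossed numbers were added.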

Additional observations from a re-analysis of the deposited data

Results flagged for a closer look

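Values were screened in 4 groups of embryos for a single embryo far from the rest, by Dixon's ratio on the log2(FPKM + 1) scale, and 8 of 52 sets of values held one, where chance flags about 1 in 20. That rate does not hold here, since 3 of the 8 come from the same embryo, another 3 from a second one, and members chosen for 8C levels near 0 give such a value wherever 1 embryo is above 0. The 2C sgRNA embryo replicate 8, whose header names the 4-cell stage and which the choice of genes had left out, was the lowest of its group in the members' median (1.57, others 4.75 to 6.77), in *Omt2a* (5.46, others 10.4 to 13.5) and in *Ccdc69* (3.06, others 6.61 to 8.68). The 8C sgRNA embryo replicate 7 was the highest of its group in the members' median (1.64, others 0.240 to 0.459), in *Tcl1b4* (1.54, the others listed at 0) and in *Gm8764* (3.85, others 0 to 1.59). In 8C BE embryos, replicate 6 was the highest for *Snhg9* (7.28, the others listed at 0) and replicate 1 for *Gm1965* (2.06, others 0 to 0.756).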

How the results depend on the processing

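Membership depended on the pseudocount, since 91 of the 150 genes were shared with a choice made at a pseudocount of 0.1. Of 201 recomputed counts of called members 198 kept within 1.5 times of the reported count, and the 3 that did not were among those leaving out 1 pool. The reported count was 0 in every comparison of siRNA pools, so most of these set 0 beside 0 and say little about stability. The count for *Nr5a2* KD against NC at 8C ran from 0 to 1 (*Snhg9* without *Nr5a2* KD replicate 2, log2 fold change 7.49, limma adjusted p 0.00618). That for *Nr2c2* KD ran from 0 to 2 (*Gm2016* and *Gm21312* without *Nr2c2* KD replicate 2, 6.08 and 3.82, adjusted p 0.00268 and 0.00901). That for *Nr5a2* KD against the other single KD groups ran from 0 to 1 (*Snhg9* without *Nr5a2* KD replicate 1, -7.78, adjusted p 0.00434). The lone pool is assumed to vary like the other groups. The replicate block gave 149 members in edited embryos and 0 in each comparison of siRNA pools, as without it. Same-numbered 4KD libraries correlated at -0.297 to 0.346, single KD libraries at -0.0403 to 0.141 and 2C pools at 0.00429, so these numbers were not taken as pairs. A block with crossed numbers in the 4KD experiment also gave 0, but it was fitted only for comparisons between the stages. The SEs and p-values given for 4KD pools are from the fit without a block, so they leave out any pairing of these pools. Of 184 recomputed medians, 16 moved by more than the spread between libraries. The medians given in the report without a pool moved most. At a pseudocount of 0.1 the median was -1.86 from 4C to 8C in NC, 0.53 without *Rarg* siRNA and -6.06 in edited embryos. With a mean of 5 FPKM required it was 0.47, 0.81 and 0.45 without *Rarg*, *Nr1h3* and *Nr2c2* siRNA, and without replicate 1 of the pools lacking *Nr1h3* siRNA it was 0.07 for those pools. The causes were not tested. With 2 pools a group and no read counts, small changes of genes under about 1 FPKM were not detectable. Large changes at higher levels also went uncalled. From 4C to 8C in NC pools, *B020004C17Rik* had a log2 fold change of -4.59 (limma adjusted p 0.272). A count of 0 called members in siRNA pools is therefore no evidence that the members did not change.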
